A study of Mus musculus with 24 samples.

Results

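The transcripts followed here are those of 9 genes that encode the receptors through which pioglitazone acts and their closest partners. They are the 3 peroxisome proliferator-activated receptors (Ppara, Ppard and Pparg), the 3 retinoid X receptors (Rxra, Rxrb and Rxrg), the coactivators Ppargc1a and Ppargc1b, and the corepressor Ncor1. They were taken by gene symbol as 9 of the 24454 rows of a table of read counts per gene. The table covered 24 libraries of cochlear explants, each made from organs of Corti (OC, the sensory epithelium that holds the hair cells) of C57BL/6N mouse pups of both sexes at postnatal day 5. All explants spent 24 h in culture medium before treatment, and 6 OCs were pooled per condition. The 4 treatments were medium without drug (CTRL), 50 µM gentamicin (GM), an aminoglycoside antibiotic that is toxic to hair cells, 10 µM pioglitazone (PIO), a thiazolidinedione agonist of PPAR-γ, and both drugs at the same doses (PIO + GM). Each treatment lasted 6 or 24 h, which gave 8 groups of 3 libraries. The values come from whole explants, in which fewer cells of a type and less RNA per cell cannot be told apart. The questions were which of the receptors the explants expressed and whether either drug changed their transcripts.

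PPARs are nuclear receptors that bind fatty acids and related lipids, and thiazolidinediones bind PPAR-γ. Each PPAR pairs with a retinoid X receptor (RXR), and the pair sits on DNA at direct repeats of the motif AGGTCA separated by 1 base. Without an agonist, corepressor complexes built on NCoR proteins keep target genes low, and with an agonist, coactivators such as PGC-1α take their place and genes of fatty acid uptake and oxidation are transcribed. RXRs also pair with the retinoic acid, thyroid hormone, vitamin D and liver X receptors, so their supply is shared among several hormone systems.

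In the mouse genome (build GRCm38, RefSeq gene spans) Ppara lies on chromosome 15 (85734910 to 85806851), Ppard on chromosome 17 (28232754 to 28301469), Pparg on chromosome 6 (115360879 to 115490404) and Rxra on chromosome 2 (27676445 to 27763319). Rxrb lies on chromosome 17 (34031812 to 34038403), Rxrg on chromosome 1 (167598362 to 167639623), Ppargc1a on chromosome 5 (51454249 to 52115853) and Ncor1 on chromosome 11 (62315663 to 62457414). RefSeq windows of 300 bases, from 250 before to 50 after an annotated start, covered 14 starts of 8 of the genes. The single core motif AGGTCA, read on either strand, was present in 4 of the 14 windows and in 16.3% of all 32851 windows. A complete repeat of the motif with a spacer of 1 base was in 13 of all windows and in 0 of the 14. The 7 windows below belong to the genes on which the results turn, in lower case 5′ to 3′ on the gene's strand, with every AGGTCA or its reverse complement in capitals. Pparg has 3 annotated starts with unlike base composition, with 44, 13 and 2 CpG dinucleotides per window, against a median of 7 over all windows. The counts per gene do not separate these starts.
Pparg, first start, chr6:115360894-115361193, plus strand: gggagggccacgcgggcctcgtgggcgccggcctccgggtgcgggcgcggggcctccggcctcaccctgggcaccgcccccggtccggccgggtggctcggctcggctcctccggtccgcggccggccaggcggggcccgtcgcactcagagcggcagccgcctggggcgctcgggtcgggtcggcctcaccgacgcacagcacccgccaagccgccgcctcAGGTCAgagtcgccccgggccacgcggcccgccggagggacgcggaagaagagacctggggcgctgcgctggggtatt
Pparg, second start, chr6:115362099-115362398, plus strand: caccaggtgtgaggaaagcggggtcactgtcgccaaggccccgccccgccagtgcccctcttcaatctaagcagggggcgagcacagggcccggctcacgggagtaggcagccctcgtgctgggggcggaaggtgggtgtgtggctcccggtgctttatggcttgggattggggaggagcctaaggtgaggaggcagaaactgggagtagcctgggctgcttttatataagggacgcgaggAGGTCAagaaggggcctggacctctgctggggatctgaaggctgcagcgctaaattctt
Pparg, the third start, chr6:115421816-115422115, plus strand: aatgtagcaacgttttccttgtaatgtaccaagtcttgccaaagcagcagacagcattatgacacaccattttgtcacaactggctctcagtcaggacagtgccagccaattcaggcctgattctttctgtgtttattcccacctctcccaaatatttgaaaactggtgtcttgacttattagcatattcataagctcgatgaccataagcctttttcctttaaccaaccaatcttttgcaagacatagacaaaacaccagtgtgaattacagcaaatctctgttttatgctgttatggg
Ppard, chr17:28232504-28232803, plus strand: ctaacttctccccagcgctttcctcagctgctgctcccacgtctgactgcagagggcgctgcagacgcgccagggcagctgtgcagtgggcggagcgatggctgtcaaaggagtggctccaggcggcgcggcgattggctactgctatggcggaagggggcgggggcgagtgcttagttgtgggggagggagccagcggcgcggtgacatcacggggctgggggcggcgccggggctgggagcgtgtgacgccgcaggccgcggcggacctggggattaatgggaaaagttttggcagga
Rxra, first start, chr2:27676951-27677250, plus strand: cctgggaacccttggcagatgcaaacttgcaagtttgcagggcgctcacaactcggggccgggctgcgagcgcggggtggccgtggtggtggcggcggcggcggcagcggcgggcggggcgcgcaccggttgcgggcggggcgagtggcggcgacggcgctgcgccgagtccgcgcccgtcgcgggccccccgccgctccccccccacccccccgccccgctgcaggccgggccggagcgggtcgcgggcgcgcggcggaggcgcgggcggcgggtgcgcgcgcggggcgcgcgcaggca
Rxra, second start, chr2:27709042-27709341, plus strand: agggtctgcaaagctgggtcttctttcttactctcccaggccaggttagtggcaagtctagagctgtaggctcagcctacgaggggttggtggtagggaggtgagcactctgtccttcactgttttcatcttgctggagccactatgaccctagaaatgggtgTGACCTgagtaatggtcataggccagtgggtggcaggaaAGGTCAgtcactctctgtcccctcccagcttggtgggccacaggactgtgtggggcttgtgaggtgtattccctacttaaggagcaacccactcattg
Ppargc1a, chr5:51567676-51567975, minus strand: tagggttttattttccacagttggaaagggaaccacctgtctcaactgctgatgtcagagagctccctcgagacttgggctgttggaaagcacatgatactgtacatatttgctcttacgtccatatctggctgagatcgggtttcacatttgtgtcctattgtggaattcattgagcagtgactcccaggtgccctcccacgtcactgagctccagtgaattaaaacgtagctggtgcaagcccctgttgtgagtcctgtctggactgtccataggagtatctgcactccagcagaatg
The motif began 28 and 9 bases before the first and second Pparg starts, and 87 (reverse strand) and 48 bases before the second Rxra start. It was absent from the windows of Ppard, Ppargc1a and the first Rxra start, which holds 55 CpG dinucleotides. These matches describe the letters of the windows only.

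The libraries held 7211357 to 15548856 counts each (median 12538495). Every library contained hair cell and supporting cell transcripts, with summed levels over 15 and 11 marker genes of 129 to 386 and 1360 to 4630 RPKM (reads per kilobase of transcript, scaled to library size). Of markers of adipocytes and muscle, tissues in which Pparg and Ppargc1a are abundant, Adipoq, Plin1 and Cidec had 0 to 8 counts per library, and Ckm, Myog and Myod1 had 0 to 5. Others of these lists reached the counts of Pparg, with 0 to 24 for Fabp4, 1 to 23 for Myh1, 0 to 30 for Myh8 and 44 to 295 for Cebpa, which other cell types also express. The 10 adipocyte markers summed to 3.92 to 9.54 RPKM and the 12 muscle markers to 1.36 to 3.68 RPKM. Macrophage markers, which bear on Pparg because macrophages express it, summed to 37 to 164 RPKM over 14 genes. In 3 libraries (PIO at 6 h replicate 2, PIO + GM at 6 h replicates 2 and 3) transcripts rich in G and C were low: their log2 change per 10% of transcript GC was -0.64, -0.47 and -0.63, against -0.05 to 0.29 in the other 21 libraries. All 3 had received pioglitazone for 6 h, and the pioglitazone differences of the 9 genes at 6 h are therefore given with and without them. The libraries are labelled as triplicates with no statement of separate litters or dissections, so p-values measure the spread between these samples, which may be technical.

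All 9 transcripts were detected in each of the 24 libraries, and the order of their levels was steep. Ncor1, the scaffold of a histone deacetylase corepressor complex, was highest at 40.2 ± 2.48 RPKM (SD, n = 24; range 35.6 to 46.2). Rxrb followed at 19.0 ± 4.03 RPKM (10.3 to 25.3) and Rxra at 13.2 ± 3.49 RPKM (5.21 to 19.0), both being general dimer partners. Ppard, the broadly expressed PPAR, reached 6.10 ± 1.51 RPKM (2.96 to 8.51). Ppargc1a, which drives mitochondrial biogenesis, averaged 2.72 ± 1.11 RPKM (1.53 to 5.71). The remaining levels were 1.65 ± 0.641 RPKM for Rxrg (0.765 to 2.85), 1.5 ± 0.45 RPKM for Ppargc1b (0.857 to 2.55) and 1.46 ± 0.249 RPKM for Ppara (1.08 to 1.98), the PPAR of fatty acid oxidation in liver. Pparg, the receptor of pioglitazone, was the lowest of the 9 at 0.791 ± 0.282 RPKM (0.224 to 1.32), from 8 to 45 counts per library. By mean RPKM it lay at percentile 12.9 of the 16317 genes tested, and Ncor1 at percentile 90.8.

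**Figure D1:**
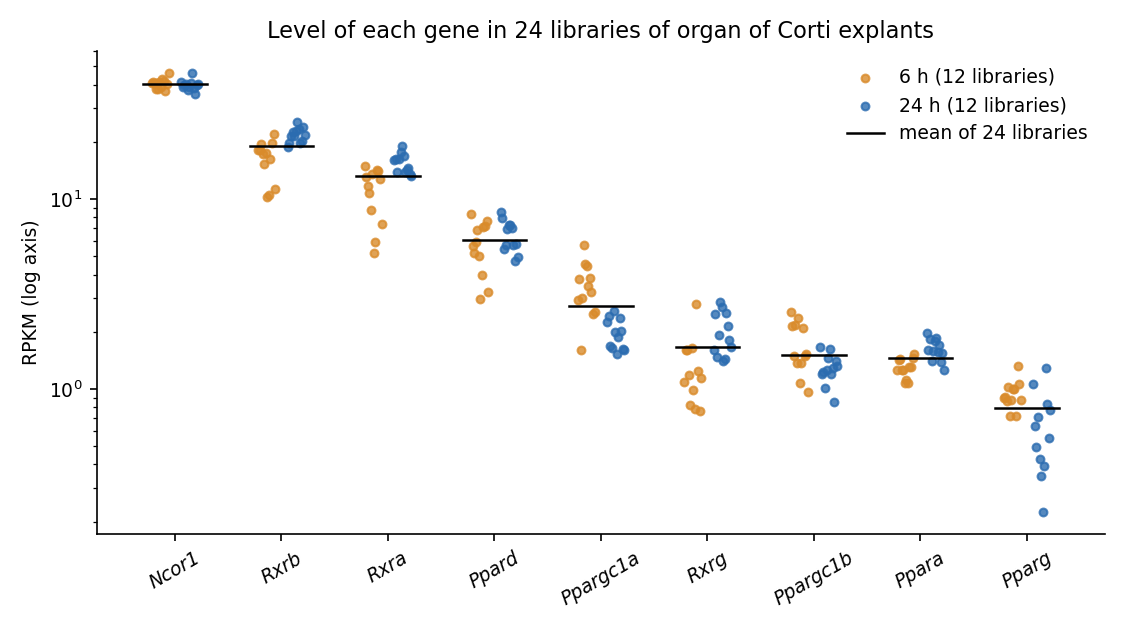
RPKM (log axis) of the 9 genes in each library, with libraries of 6 h and 24 h in 2 colours and a line at the mean of all 24. Ncor1 sits near 40 RPKM in every library, and Pparg lies lowest, between 0.224 and 1.32 RPKM.

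With the deposited gene lengths, neighbours at the top of this order did not exchange places: Ncor1 exceeded Rxrb, Rxrb exceeded Rxra and Rxra exceeded Ppard in 24 of 24 libraries, and Ppard exceeded Ppargc1a in 23. In the middle the order was mixed, with Ppargc1a above Rxrg in 16 libraries, Rxrg above Ppargc1b in 13 and Ppargc1b above Ppara in 11. These counts pool the time points, between which the order changed. Ppargc1a exceeded Rxrg in every library at 6 h and only in some at 24 h. By median RPKM, Rxrg was below Ppargc1b at 6 h and above it at 24 h. Ppargc1b was above Ppara by median at 6 h and below it at 24 h. The differences between these neighbours were not tested. Ppara exceeded Pparg in 23 of 24 libraries. As a reference for genes that this tissue should not transcribe, 1473 olfactory and vomeronasal receptor genes were measured in the same libraries. Every one of the 9 genes was above their 95th percentile in 24 of 24 libraries, and the smallest ratio to it was 2.03 for Pparg, 2.24 for Ppargc1b and 2.67 for Rxrg. Over the libraries the Pparg level correlated with the log2 share of these receptor counts (r = 0.62), against -0.64 to 0.38 for the other genes. The part of this background in the Pparg values was not tested.

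Within families, Ppard made up a median of 73.1% of the summed PPAR RPKM (57.4 to 79.4% over the libraries), Ppara 17.8% (12.0 to 27.1%) and Pparg 9.77% (2.38 to 19.7%). Rxrb made up 56.6% of the RXR sum, Rxra 38.9% and Rxrg, the RXR of muscle and parts of the brain, 4.69%. Ppargc1a made up 62.9% of the sum with its homologue Ppargc1b. The order depended on transcript length. The deposited lengths are 7528 bp for Ppara, 3218 bp for Ppard and 2323 bp for Pparg, whereas the GENCODE exons add up to 3836, 7514 and 2953 bp. With the GENCODE lengths the mean log2 level relative to the mean over the 9 genes moved from -1.52 to -0.40 for Ppara and from 0.50 to -0.56 for Ppard, which placed Ppara above Ppard and Ppard level with Ppargc1a (-0.56). Rxrb and Rxra, at 2.15 and 1.60 with the deposited lengths, came to 1.78 and 1.75. Pparg was lowest with either length (-2.38 and -2.57).

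For pioglitazone at 6 h, 1 of the 9 transcripts passed the threshold in the averaged comparison, which set the 6 libraries with the drug (PIO and PIO + GM) against the 6 without it (CTRL and GM). edgeR's quasi-likelihood test with Benjamini-Hochberg adjustment over all 16317 genes called 16.1% of genes in this comparison, so that 1 of 9 is no more than the share over all genes, and DESeq2 also called Rxra alone among the 9. Rxra measured 14.9, 8.77 and 14.2 RPKM in CTRL and 13.0, 13.6 and 14.0 RPKM in GM. It measured 11.7, 5.21 and 12.7 RPKM in PIO and 10.8, 5.94 and 7.38 RPKM in PIO + GM. The GM and PIO + GM libraries did not overlap, whereas CTRL replicate 2 was below PIO replicates 1 and 3. The fitted log2 difference was -0.55 (SE 0.18, 95% confidence interval -0.93 to -0.17, edgeR adjusted p = 0.0466), and the call was lost under most of the other settings tried, among them library size alone (0.0586), no filter (0.065) and the 6 h libraries only (0.17).

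The low Rxra values coincided with the 3 libraries in which GC-rich transcripts were low, which held the 3 lowest Rxra levels of all 24 libraries. Without those libraries, which leaves 1 PIO + GM library at 6 h that is assumed to vary like the other groups, the log2 difference was -0.19 (SE 0.15, edgeR adjusted p = 0.655). With the GC trend of each library removed, it was -0.25 (SE 0.11, edgeR adjusted p = 0.147). Rxrb and Ppard had their 3 lowest levels in the same libraries. Rxrb measured 10.3, 10.5 and 11.3 RPKM there and 15.3 to 22.0 RPKM in the other 9 libraries at 6 h. Its pioglitazone difference was -0.21 (SE 0.14, edgeR adjusted p = 0.304) with all libraries, and it turned to 0.20 (SE 0.07, edgeR adjusted p = 0.0528) once the GC trend was removed. Ppard measured 2.96, 3.99 and 3.23 RPKM in the 3 libraries and 5.02 to 8.31 RPKM in the others at 6 h, with a difference of -0.46 (SE 0.20, edgeR adjusted p = 0.114) that became -0.11 (SE 0.20, edgeR adjusted p = 0.881) without them. Leaving out these libraries removes 3 of the 6 with pioglitazone at 6 h, and the part of the GC trend in the differences was not tested.

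**Figure D2:**
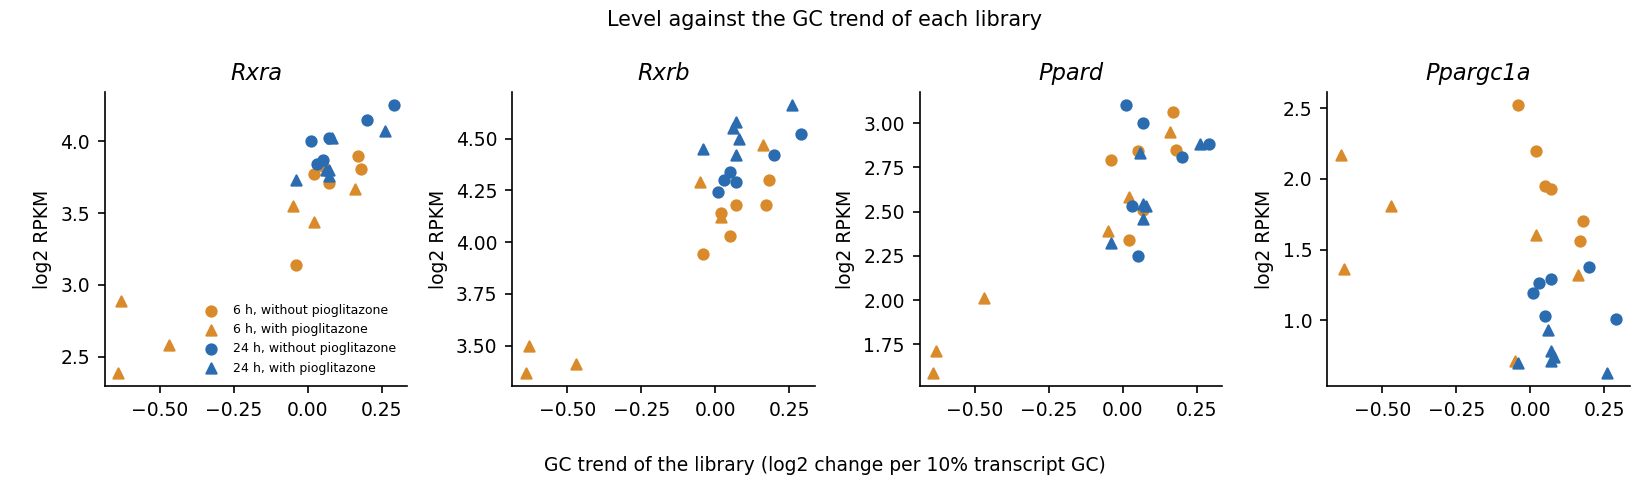
Level (log2 RPKM) of Rxra, Rxrb, Ppard and Ppargc1a against the GC trend of each library (log2 change per 10% of transcript GC), with colours for time and triangles for libraries with pioglitazone. The 3 libraries at -0.64, -0.63 and -0.47 hold the lowest Rxra, Rxrb and Ppard values, and Ppargc1a does not follow that order.

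For Ppargc1a the fitted pioglitazone difference was the same at both times and passed the threshold at neither in the fit to all 24 libraries, whereas some of the other settings called it. At 6 h it measured 2.93, 5.71 and 3.84 RPKM in CTRL, 3.8, 4.56 and 3.22 RPKM in GM, 1.61, 4.46 and 2.47 RPKM in PIO, and 3.01, 3.49 and 2.54 RPKM in PIO + GM. The ranges overlapped, and the log2 difference was -0.45 (SE 0.19, 95% confidence interval -0.85 to -0.06, edgeR adjusted p = 0.0997). It was -0.69 (SE 0.19, edgeR adjusted p = 0.0996) without the 3 libraries and -0.67 with the GC trend removed (SE 0.16, edgeR adjusted p = 0.0115), so its call, unlike that of Rxra, was gained by this correction. At 24 h it measured 2.25, 2.58 and 2.37 RPKM in CTRL, 2.42, 1.99 and 2.02 RPKM in GM, 1.69, 1.53 and 1.62 RPKM in PIO, and 1.65, 1.88 and 1.60 RPKM in PIO + GM. All 6 libraries with pioglitazone were below all 6 without it, an absence of overlap that 6.15% of all genes tested showed in either direction. The log2 difference was again -0.45 (SE 0.19, 95% confidence interval -0.85 to -0.05, edgeR adjusted p = 0.228), and a fit to the 24 h libraries alone gave -0.46 (SE 0.08, edgeR adjusted p = 0.0112). In the averaged comparison at 24 h, 2.79% of all genes passed the threshold by edgeR, and 0 of the 9 passed by edgeR or by DESeq2. An unadjusted p under 0.05 was reached by Ppargc1a and Rxrg at 24 h, and by Rxra, Ppargc1a, Ppargc1b and Ppard at 6 h, beside 16.9% of all genes at 24 h and 33.6% at 6 h.

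Rxrg measured 1.60, 2.85 and 2.51 RPKM in CTRL, 2.48, 2.71 and 2.14 RPKM in GM, 1.47, 1.40 and 1.81 RPKM in PIO, and 1.93, 1.44 and 1.66 RPKM in PIO + GM at 24 h. CTRL replicate 1 lay within the range of the libraries with pioglitazone. Its log2 difference was -0.56 (SE 0.25, edgeR adjusted p = 0.249) at 24 h and -0.52 (SE 0.26, edgeR adjusted p = 0.171) at 6 h, where it was -0.38 (SE 0.35, edgeR adjusted p = 0.716) without the 3 libraries and -0.15 without CTRL replicate 3, the highest Rxrg value at 6 h (2.80 RPKM). Rxrb lay at 18.8 to 22.8 RPKM without and 21.4 to 25.3 RPKM with pioglitazone at 24 h, a log2 difference of 0.17 (SE 0.14, edgeR adjusted p = 0.592) that became 0.25 (SE 0.06, edgeR adjusted p = 0.0229) with the GC trend removed. Ppargc1b (chromosome 18, 61291445 to 61400756) differed by -0.47 (SE 0.20, edgeR adjusted p = 0.107) at 6 h and by 0.01 (SE 0.20, edgeR adjusted p = 0.985) at 24 h. Without the 3 libraries its difference at 6 h was -0.14 (SE 0.22, edgeR adjusted p = 0.855). Ppara differed by 0.05 (95% confidence interval -0.20 to 0.29) at 6 h, or 0.08 without the 3 libraries, and -0.09 (-0.33 to 0.15) at 24 h. Ncor1 had the narrowest intervals, with 0.05 (-0.09 to 0.18) at 6 h, or -0.02 without the 3 libraries, and 0.10 (-0.03 to 0.24) at 24 h. The pioglitazone differences at 24 h and 6 h were themselves compared, with 0.00613% of all genes and 0 of the 9 called, and 0 of the 9 at an unadjusted p under 0.05.

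Without a replicate block, no difference of Pparg with its own agonist passed the threshold at either time. At 6 h Pparg measured 0.899, 0.721 and 0.721 RPKM in CTRL, 0.904, 0.870 and 1.32 RPKM in GM, 0.868, 1.00 and 1.06 RPKM in PIO, and 1.02, 1.00 and 0.872 RPKM in PIO + GM. The averaged log2 difference was 0.11 (SE 0.27, 95% confidence interval -0.45 to 0.68, edgeR adjusted p = 0.796), and 0.14 (SE 0.36, edgeR adjusted p = 0.92) without the 3 libraries. At 24 h it measured 1.06, 0.426 and 1.28 RPKM in CTRL, 0.640, 0.349 and 0.832 RPKM in GM, 0.497, 0.224 and 0.554 RPKM in PIO, and 0.712, 0.391 and 0.774 RPKM in PIO + GM. Replicate 2 was the lowest of its group in all 4 treatments at 24 h, and the ranges of CTRL and PIO overlapped through it. PIO differed from CTRL by -1.09 on the log2 scale (SE 0.40, unadjusted p = 0.0127 and edgeR adjusted p = 0.332), whereas PIO + GM differed from GM by 0.04 (SE 0.40, edgeR adjusted p = 0.993). PIO was below CTRL in all 3 pairs of the same replicate number, and so were GM and PIO + GM. The labels do not say that a replicate number pairs libraries. With the replicate block the PIO difference from CTRL passed the threshold (log2 -1.08, SE 0.23, edgeR adjusted p = 0.0305). The differences without the block were compared by the interaction term, which was 1.14 (SE 0.56, unadjusted p = 0.0566 and edgeR adjusted p = 1). The averaged difference at 24 h was -0.53 (SE 0.28, 95% confidence interval -1.11 to 0.06, edgeR adjusted p = 0.359). With 8 to 34 counts per library at 24 h, a change smaller than these intervals was not detectable at this depth. Macrophage markers at 24 h summed to 55.0 to 146 RPKM with and 82.0 to 164 RPKM without pioglitazone, with 0 of 14 called, and their part in the Pparg values was not tested.

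**Figure D3:**
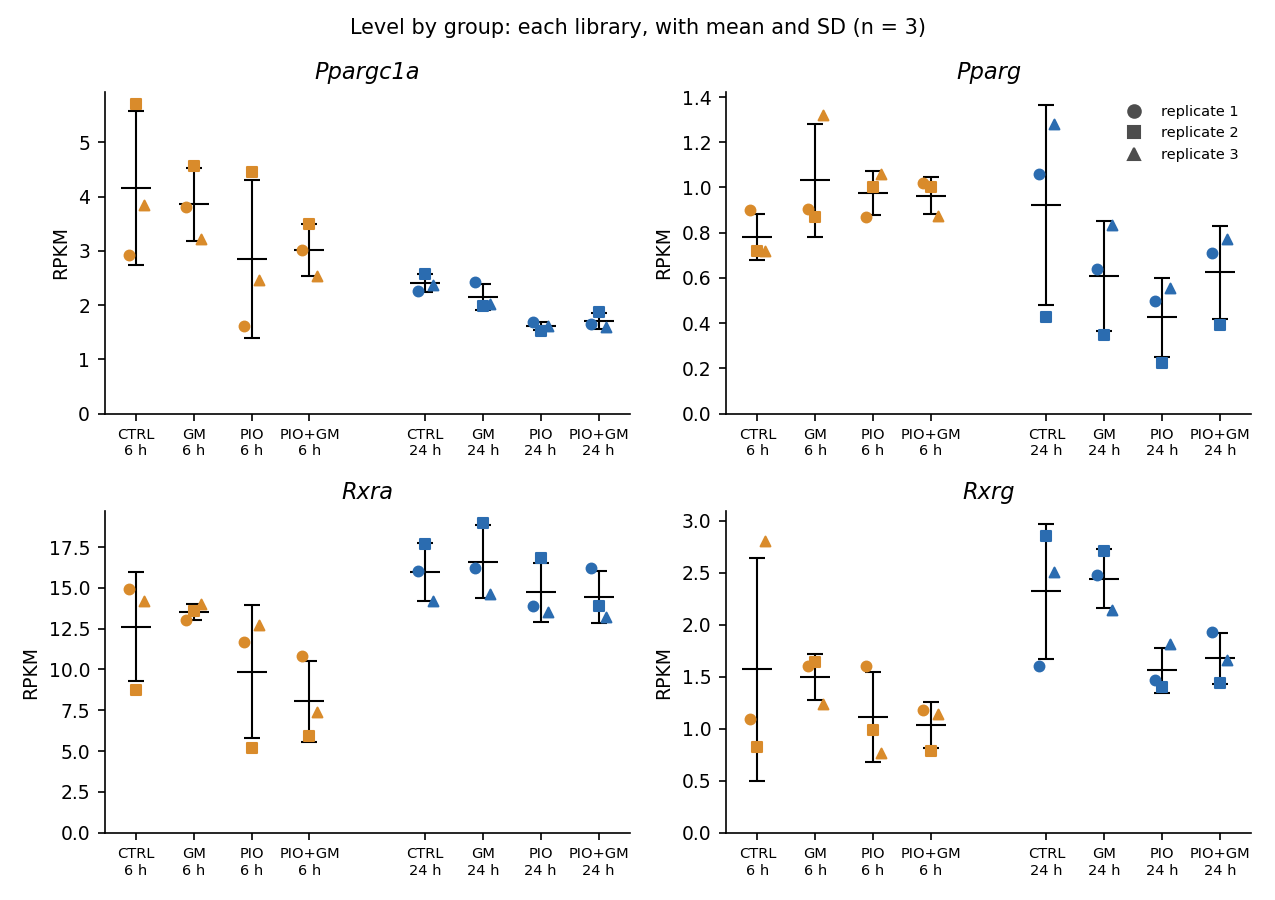
RPKM of Ppargc1a, Pparg, Rxra and Rxrg in each library by treatment and time, with the mean and SD of each group (n = 3) and a marker shape for each replicate number. At 24 h all 6 Ppargc1a values with pioglitazone (1.53 to 1.88) are below the 6 without it (1.99 to 2.58), and replicate 2 is lowest for Pparg in each treatment at 24 h.

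No difference of the 9 transcripts with gentamicin passed the threshold. By edgeR the averaged comparison (GM and PIO + GM against CTRL and PIO) called 0.0123% of all genes at 6 h and 0.313% at 24 h. It called 0 of the 9 at either time by edgeR, by DESeq2 or at an unadjusted p under 0.05. At 6 h the fitted log2 differences ran from -0.29 for Ppard (SE 0.20) to 0.20 for Pparg (SE 0.27). At 24 h they ran from -0.26 for Ppargc1b (SE 0.20) to 0.09 for Rxrg (SE 0.25). For Ncor1 the 95% confidence interval was -0.10 to 0.17 at 6 h and -0.12 to 0.14 at 24 h, and for Pparg at 24 h it was -0.64 to 0.62, so the size of change that could be seen differed widely between an abundant and a rare transcript.

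Without a replicate block, single comparisons of 3 against 3 libraries called 0 of the 9 as well, by edgeR and by DESeq2. By edgeR, PIO against CTRL called 0.337% of all genes at 6 h and 0.153% at 24 h, and PIO + GM against GM called 1.32% and 0.11%. GM against CTRL called 0% at 6 h and 0.0123% at 24 h, and PIO + GM against PIO called 0% and 0.0735%. The interaction of the drugs called 0% at 6 h and 0% at 24 h. A test of any difference among the 4 treatments called 2.64% of all genes at 6 h and 0.846% at 24 h, with 0 of the 9. At an unadjusted p under 0.05 these comparisons held 2 of the 9 in PIO + GM against GM at 6 h, 2 in PIO against CTRL at 24 h and 1 in any difference at 6 h, beside 25.0%, 9.93% and 19.3% of all genes. In PIO + GM against GM at 6 h the libraries of Rxra, Rxrb and Rxrg did not overlap, as was true of 23% of all genes tested, and PIO + GM replicates 2 and 3 are among the 3 libraries with the GC trend.

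**Figure D4:**
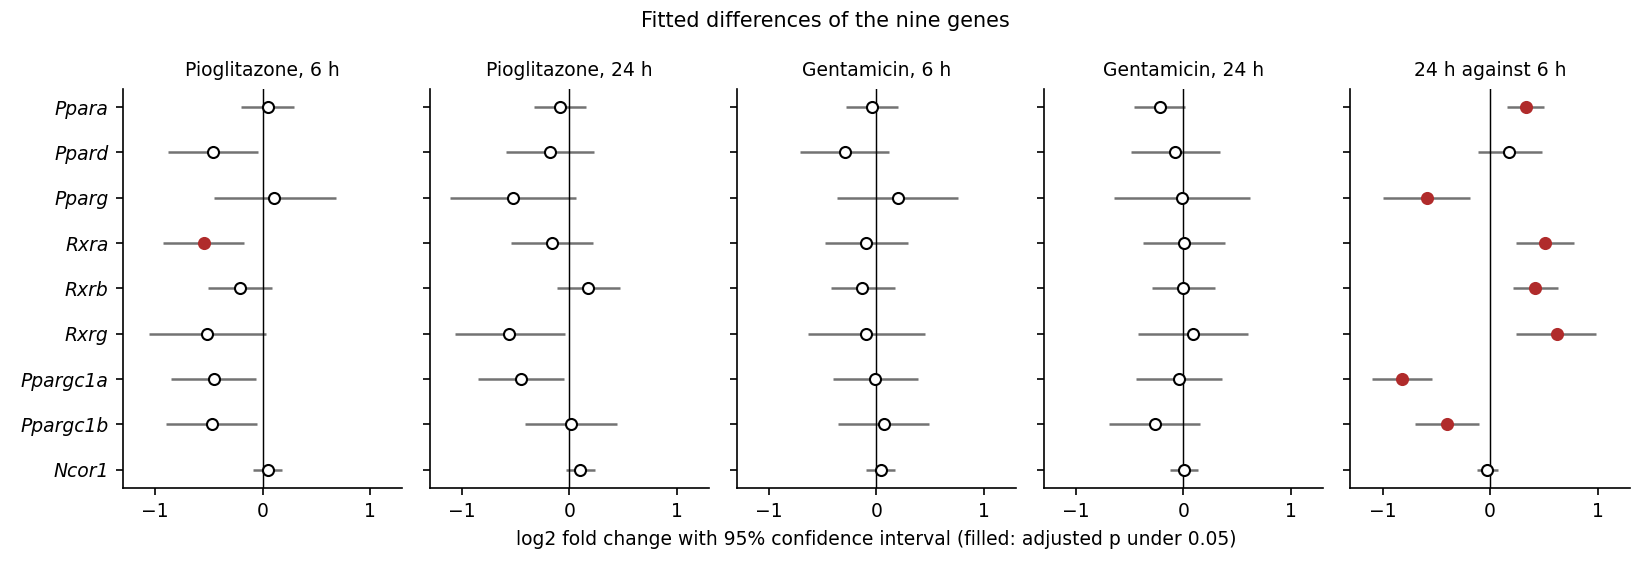
Fitted log2 fold changes with 95% confidence intervals for the averaged pioglitazone and gentamicin comparisons at 6 and 24 h and for 24 h against 6 h, filled where the edgeR adjusted p was under 0.05. Rxra at 6 h is the only filled point among the drug comparisons, and 7 of the 9 genes are filled for time.

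Most of the 9 transcripts differed between the time points. In the comparison of 24 h with 6 h, averaged over the 4 treatments, 62.6% of all genes and 7 of the 9 passed the threshold. Of the receptors, Ppara rose by 0.33 (SE 0.08, edgeR adjusted p = 0.00178), Rxra by 0.51 (SE 0.13, edgeR adjusted p = 0.00188), Rxrb by 0.42 (SE 0.10, edgeR adjusted p = 0.00136) and Rxrg by 0.62 (SE 0.18, edgeR adjusted p = 0.00571) on the log2 scale. Pparg fell by 0.59 (SE 0.20, edgeR adjusted p = 0.0125), and Ppard differed by 0.18 (95% confidence interval -0.11 to 0.48). Ppargc1a fell by 0.82 (SE 0.13, edgeR adjusted p = 3.2e-05), the largest change of the 9, from a median of 3.35 RPKM (1.61 to 5.71) at 6 h to 1.93 RPKM (1.53 to 2.58) at 24 h. Ppargc1b fell by 0.40 (SE 0.14, edgeR adjusted p = 0.0211), and Ncor1 differed by -0.03 (-0.12 to 0.07). DESeq2 called the same 7 genes, as did edgeR without the 3 libraries or with the GC trend removed, while an added covariate for the share of olfactory and vomeronasal receptor counts left 5, without Pparg and Ppargc1b. The ranges of the 12 libraries at 6 h and the 12 at 24 h overlapped for each of the 9 genes.

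Cell type markers were also compared over time, beside 5212 of all 16317 genes that rose and 5008 that fell. Of the supporting cell markers 5 of 11 rose and 0 fell (1690 to 4130 RPKM at 6 h and 1360 to 4630 RPKM at 24 h), and of the hair cell markers 5 of 15 rose and 2 fell (137 to 377 and 129 to 386 RPKM). Of the macrophage markers 8 of 14 rose and 0 fell, with sums of 37.0 to 95.5 RPKM at 6 h and 55.0 to 164 RPKM at 24 h. Of the neuron markers 7 of 11 fell and 1 rose (78.5 to 237 and 102 to 176 RPKM), and of the Schwann cell markers 5 of 11 fell (167 to 1120 and 161 to 390 RPKM). Red blood cell markers fell in 6 of 6 tested, from 211 to 791 RPKM to 91.7 to 288 RPKM. Of the adipocyte markers 3 of 4 tested fell and 1 rose (4.51 to 7.67 and 3.92 to 9.54 RPKM), and of the muscle markers 3 of 7 tested fell and 2 rose (1.36 to 3.68 and 1.68 to 3.63 RPKM). With pioglitazone at 24 h, where 327 of all genes fell and 128 rose, 4 of 11 fibroblast and bone markers fell (Col3a1, Dcn, Pdgfra and Acan), and their sums were 1670 to 2090 RPKM with and 2340 to 3050 RPKM without the drug. At 6 h, where 1115 of all genes fell and 1510 rose, 4 of 15 hair cell markers (Myo7a, Pou4f3, Gfi1 and Slc17a8) and 2 of 11 Schwann cell markers (Erbb3 and Sox10) fell with pioglitazone, with sums of 137 to 377 against 148 to 287 RPKM and 167 to 1020 against 362 to 1120 RPKM. Of the 11 fibroblast and bone markers Pdgfra (log2 -0.81, SE 0.10, edgeR adjusted p = 9.82e-05) and Col3a1 (log2 -0.54, SE 0.18, edgeR adjusted p = 0.0471) fell at 6 h, with sums of 1420 to 2760 against 1650 to 2870 RPKM. Without the 3 libraries, which leaves 1 PIO + GM library at 6 h, median log2 differences at 6 h were -0.42 for hair cell and -0.6 for Schwann cell markers. With all libraries they were -0.2 and -0.61. For fibroblast and bone markers the median at 6 h was -0.2 without the 3 libraries and -0.46 with all. At 24 h it was -0.88 in both settings. Adipocyte markers had 4 of 10 genes above the filter, of which Ucp1 (1 to 12 counts per library) passed with pioglitazone at 6 h (log2 1.25, SE 0.40, edgeR adjusted p = 0.0391). The macrophage marker Itgam (log2 1.00, SE 0.33, edgeR adjusted p = 0.0426) and the endothelial marker Cldn5 (log2 -1.12, SE 0.37, edgeR adjusted p = 0.0436) passed there too. Medians of the adipocyte, macrophage and endothelial lists at 6 h were 0.64, -0.22 and -0.37. Without the 3 libraries they were 0.29, -0.04 and -0.14. The part of cell composition in the values of the 9 genes was not tested.

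Transcripts of genes that PPARs are known to switch on were measured in the same comparisons. From a list of 50 such genes, 42 were tested, and 8 rose and 3 fell with pioglitazone at 6 h (median log2 difference 0.12, against -0.02 over all genes, of which 16.1% were called). At 24 h 8 rose and 0 fell (median 0.27, against 0.00 over all genes, of which 2.79% were called). Cpt1a, which admits long-chain fatty acids to mitochondria, rose by 0.82 (SE 0.08, edgeR adjusted p = 3.93e-05) at 6 h and by 1.09 (SE 0.08, edgeR adjusted p = 7.16e-07) at 24 h. Angptl4, a secreted inhibitor of lipoprotein lipase, rose by 1.35 (SE 0.29, edgeR adjusted p = 0.00693) at 6 h and 8.08-fold at 24 h (log2 3.01, SE 0.30, edgeR adjusted p = 2.94e-05). Pdk4, which restrains pyruvate oxidation, rose 2.34-fold at 6 h and 2.75-fold at 24 h, and Acadl, an acyl-CoA dehydrogenase, rose 1.42-fold and 1.59-fold. Plin4, a lipid droplet coat protein, fell at 6 h (log2 -1.90, SE 0.30, edgeR adjusted p = 0.00111), as did the fatty acid transporter Slc27a1 (log2 -1.10, SE 0.17, edgeR adjusted p = 0.00101). Without the 3 libraries, a choice made after seeing the data, the median over 43 tested genes was 0.08 at 6 h and 0.28 at 24 h. In that setting Cpt1a, Acadl, Angptl4 and Slc27a1 passed at 6 h, whereas Pdk4 was at 1.13 (edgeR adjusted p = 0.0646) and Plin4 at -1.35 (edgeR adjusted p = 0.0641). The list was written with earlier results of these data known, and a change in these transcripts does not show which of the 3 PPARs was engaged.

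Among the partners of the 9 genes, the genes that passed the threshold with pioglitazone in the main fit to all 24 libraries did so at 6 h. In that fit 16.1% of all genes were called at 6 h, and the counts of the lists are a description beside that share. With the GC trend removed, 1 gene of each of the 3 lists below passed at 6 h. At 24 h in that setting 1 corepressor rose and 1 receptor that pairs with RXR fell past the threshold. The counts below are those of the main fit. Of 12 further coactivators, the deacetylase Sirt1 rose (log2 0.47, SE 0.13, edgeR adjusted p = 0.0204) and Prdm16 fell (log2 -0.77, SE 0.26, edgeR adjusted p = 0.049) at 6 h. At 24 h 0 of 12 passed, the lowest p belonging to the acetyltransferases Ep300 (0.14, SE 0.08) and Crebbp (0.13, SE 0.10). Of 8 corepressors tested, those that fell at 6 h included Gps2, a subunit of the complex built on Ncor1 (log2 -0.36, SE 0.12, edgeR adjusted p = 0.0491), and at 24 h 0 passed, with Sin3a at 0.21 (SE 0.07) and Hdac3 at 0.19 (SE 0.07). Of 11 other receptors that pair with RXR, the thyroid hormone receptor Thra (log2 -0.57, SE 0.13, edgeR adjusted p = 0.0084) and the retinoic acid receptors Rarg (log2 -0.80, SE 0.19, edgeR adjusted p = 0.0121) and Rara (log2 -0.72, SE 0.22, edgeR adjusted p = 0.0328) fell at 6 h. At 24 h 0 of 11 passed, with Nr1h4, the bile acid receptor, at -1.22 (SE 0.36) and Rarb at 0.33 (SE 0.17). Without the 3 libraries, which leaves 1 PIO + GM library at 6 h, the median log2 differences at 6 h were -0.07, -0.06 and -0.31 for these 3 lists. With all libraries they were -0.07, -0.04 and -0.29. Leaving out single libraries took the edgeR adjusted p of Sirt1 up to 0.0663, Prdm16 to 0.162, Gps2 to 0.133 and Rara to 0.0864. For Thra and Rarg it stayed under the threshold, at 0.0263 and 0.0426 at most.

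Of 14 tested genes that supply or carry PPAR and RXR ligands, Aldh1a2, which makes retinoic acid, fell at 6 h (log2 -0.40, SE 0.10, edgeR adjusted p = 0.0132) and at 24 h (log2 -0.46, SE 0.10, edgeR adjusted p = 0.0152). Leaving out single libraries took its edgeR adjusted p to 0.00984 to 0.0449 at 6 h and 0.0162 to 0.0517 at 24 h. Fabp5, which carries fatty acids to the nucleus, fell at 24 h (log2 -0.52, SE 0.14, edgeR adjusted p = 0.042), a call lost when any 1 of the 12 libraries at 24 h was left out (0.0511 to 0.117). These are 1 of 14 at 6 h and 2 of 14 at 24 h, beside 16.1% and 2.79% of all genes called. The median over the 14 was -0.30 at 6 h and -0.45 at 24 h, against -0.02 and 0.00 over all genes. Without the 3 libraries Aldh1a2 was at -0.37 at 6 h (edgeR adjusted p = 0.162). A list of 19 target genes of PGC-1 coactivators included Ppargc1a, mitochondrial genes, and others such as Vegfa and Sod2. Of these, Gabpa rose at 6 h (log2 0.27, SE 0.09, edgeR adjusted p = 0.0445, and log2 0.11 without the 3 libraries). At 24 h 0 passed, with Perm1 at -0.59 (SE 0.24) and Tfb2m at 0.22 (SE 0.12). Over time, 12 of these 19 fell and 1 rose, beside 62.6% of all genes called and 5008 of 16317 that fell (median -0.22, against 0.02 over all genes). Examples were the citric acid cycle subunit Idh3a (log2 -1.18, SE 0.07, edgeR adjusted p = 1.2e-10), cytochrome c, Cycs (log2 -1.33, SE 0.12, edgeR adjusted p = 2.98e-08) and the mitochondrial transcription factor Tfam (log2 -0.47, SE 0.08, edgeR adjusted p = 7.23e-05), while Cox4i1 rose (log2 0.25, SE 0.05, edgeR adjusted p = 0.000354).

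The genes whose levels followed each of the 9 most closely were sought among 13827 genes by Pearson correlation of normalised log2 counts over the 24 libraries, which share treatment, time and the GC trend. Rxra ran closest to Notch1, Adgrl1 and Inppl1 (r = 0.97 for each), and Rxrb to Sgsh, Fastk and Btbd2 (r = 0.97 for each). Ppard ran closest to 2310022B05Rik (0.94), Itpkb and Bcar1 (0.92 for both). Ppargc1a ran closest to Tcim (0.95), Il33 (0.93) and Inpp5f (0.92), and these values were 0.86, 0.79 and 0.76 after the group means were removed. Pparg ran closest to the growth factor gene Bmp6 (0.88, and 0.90 after the group means were removed), Nudt4 (0.86) and Slc41a2 (0.85). Rxrg ran closest to Atp10b, Tspoap1 and Zfp821 (0.87 for each), Ppargc1b to Sipa1l3 (0.86), Agpat4 and Arhgef2 (0.85 for both), and Ppara to Lig1, Fam228a and C2cd3 (0.84 for each). For Ncor1, whose level varied least, the closest genes Tut4, Emsy and Dlg1 reached 0.81, 0.80 and 0.77. Among the 9 themselves the closest pair was Rxra with Rxrb (0.89, and 0.9 after the group means were removed). Ppargc1a ran opposite to Rxrb (-0.67), Ppara (-0.63) and Rxra (-0.5), and after the group means were removed these were -0.62, -0.47 and -0.72. The GC trend of the libraries correlated with Rxra at 0.91, Rxrb at 0.89 and Ppard at 0.85, and its part in these pairs was not tested.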

How the data were processed

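Whole-gene read counts were available for 24 libraries. The authors made stranded total RNA libraries, sequenced them as single reads, aligned them with STAR to mm10 and counted reads per RefSeq gene in exons, and the deposited counts are whole numbers without normalization beside a gene length. Whether the counting used strand is not given in the sources used here, and Ncor1 overlaps Ttc19 in the annotation. Gene symbols were matched for 24381 of 24454 Entrez identifiers. Library sizes were scaled by TMM, genes were kept by filterByExpr (16317), and edgeR 4.0.16 quasi-likelihood tests were fitted with a mean per group over all 24 libraries. P-values were adjusted over all genes by Benjamini-Hochberg, with a threshold of 0.05. The standard error is the log2 fold change divided by the square root of F. RPKM used the deposited lengths. DESeq2 1.42.0 was an alternative. The scripts were tested on simulated data.

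The 9 genes, the gene lists and the tests were chosen with earlier results of these data known. Besides the 9 genes, the text names the 3 genes most correlated with each, and, from each list, up to 5 genes per time with the lowest p among those past the threshold for pioglitazone (or 2 where none passed). From the cell type markers it names genes at or near 0 and genes past the threshold for pioglitazone. Some genes that this rule names are not reported here. Examples for time in culture were chosen after their values were seen, as was Angptl4 at 6 h. The alternatives were library size alone, 2 other filters, the libraries of a time point alone, a replicate block, removal of a spline of each library's values on transcript GC (94.3% of tested genes had one), the share of olfactory and vomeronasal receptor counts as a covariate, and leaving out each library. Leaving out the 3 libraries with a GC trend was added after the data were seen. The RefSeq promoter table (GRCm38.p6) matched 8 of the 9 genes, and the sequence of Ppargc1b was not used here.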

Additional observations from a re-analysis of the deposited data

How the results depend on the processing

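The Rxra difference with pioglitazone at 6 h (-0.55) rested on the handling of libraries. Its edgeR adjusted p was 0.0586 with library size alone, 0.065 with no filter, 0.17 with the 6 h libraries only, 0.147 with the GC trend removed, 0.117 with the background covariate and 0.655 without the 3 libraries with a GC trend (PIO at 6 h replicate 2, PIO + GM at 6 h replicates 2 and 3), an alternative chosen after seeing the data. The count of the 9 genes called was then 0 with each of library size alone, no filter, the time point only, the covariate and the 3 libraries left out, and 1 (Ppargc1a) with the GC trend removed; the cause was not tested. Leaving out 1 library at a time gave 0 to 3 of the 9 for pioglitazone at 6 h. It was 0 without CTRL replicates 1 or 3, any GM replicate, or PIO + GM replicates 2 or 3, and 3 without PIO + GM replicate 1. Without PIO replicate 2 the gene called was Ppargc1a. The range was 0 to 2 for PIO + GM against GM at 6 h (2, Rxra and Rxrb, without PIO + GM replicate 1), 0 to 1 for any difference at 6 h (1, Ppargc1a, without PIO replicate 2) and 6 to 7 for time (6, without Ppargc1b, when PIO + GM at 6 h replicate 1 was left out). The log2 differences that changed sign in this way ran from -0.019 to 0.104 for Ppara with pioglitazone at 6 h, from -0.076 to 0.112 for Ppargc1b with pioglitazone at 24 h and from -0.014 to 0.184 for Rxrg with gentamicin at 24 h.

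Other signs turned for Pparg with pioglitazone at 6 h (-0.025 with the covariate), Rxrb at 6 h (0.20 with the GC trend removed and 0.12 without the 3 libraries) and Ncor1 without the 3 libraries (-0.024 with pioglitazone at 6 h and 0.009 for time). For pioglitazone at 24 h, 2 of the 9 (Rxrg and Ppargc1a) were called with the time point only and 1 (Rxrb) with the GC trend removed. PIO against CTRL at 6 h called 1 (Ppargc1a) without the 3 libraries. For time, 6 were called with at least 10 counts in every library, where Pparg was not tested, and 5 with the covariate.

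Libraries with the same replicate number had correlated deviations from group means (r over 0.1) in 9 of 18 pairs at 6 h and 15 of 18 at 24 h. Mean r was 0.11 and 0.38 for the same number, against -0.05 and -0.18 for different numbers. Pairs with different numbers passed 0.1 too, such as PIO + GM replicate 1 with PIO replicate 3 at 6 h (0.41). Another was PIO replicate 1 with GM replicate 3 at 24 h (0.58). At each time 8 of 12 libraries were closest to their own number, a hint from the data and not from the design. Whether these counts exceed those of unpaired libraries was not tested. In CTRL and PIO at 24 h the correlation was 0.11, 0.56 and 0.23 for the 3 numbers. With a replicate block, 3 of the 9 (Ppard, Rxra and Ppargc1a) were called for pioglitazone at 6 h, 1 (Rxra) for any difference and for PIO + GM against GM at 6 h, and 1 (Pparg, -1.08, edgeR adjusted p = 0.0305) for PIO against CTRL at 24 h. With the replicate block and the GC trend removed, 3 (Rxra, Rxrb and Ppargc1a) were called for pioglitazone at 6 h, where Rxrb was at 0.20, 2 (Rxrb and Ppargc1a) at 24 h, and 1 each for any difference at 6 h, any difference at 24 h, PIO against CTRL at 6 h and PIO against CTRL at 24 h. For pioglitazone the count over all genes also rose with the block at both times, and with both changes at 24 h, as given below. That count at 6 h with both changes is not given, so these calls are a description only.

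Over all 16317 genes, the count called for pioglitazone at 6 h was 2625. It was 143 with the time point only, 4403 with the replicate block, 1379 with the covariate and 123 without the 3 libraries, and it ran from 1141 (without PIO + GM replicate 2) to 5141 (without PIO + GM replicate 1) when libraries were left out in turn. For pioglitazone at 24 h it was 455, against 279 with no filter, 1373 with the time point only, 1191 with the replicate block, 1388 with the GC trend removed, 2687 with both, 970 by DESeq2 and 1046 without the 3 libraries, with a lowest value of 182 (without PIO at 24 h replicate 3). For gentamicin it was 2 at 6 h, against 49 by DESeq2 and 16 without CTRL replicate 2, and 51 at 24 h, against 12 with at least 10 counts in every library, 83 with the replicate block and 97 by DESeq2. Pparg had 8 to 45 counts per library, which limits its precision.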
